A study of Homo sapiens with 12 samples.

Results

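Mitochondrial ribosomal proteins are encoded in the nucleus, and 49 of their genes were followed here in CAL62, a cell line established from an anaplastic thyroid carcinoma. They were taken by symbol: every analysed gene of the deposited table whose name is MRPL or MRPS followed by a number, with pseudogenes left out. These 49 genes, 34 named MRPL for the large subunit and 15 named MRPS for the small subunit, stood among 37471 genes in all. RefSeq lists 77 such symbols. Of the others, 26 lie on chromosomes 3 to 9, which were not analysed here, and 2 (MRPL57 and MRPL58) appear in the table under the older names MRP63 and ICT1.

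The study used 2 isogenic CAL62 lines. In the miR-139 line doxycycline induces mature hsa-miR-139-5p, and in the scrambled line it induces a non-targeting control. The 4 groups, with 3 polyA RNA libraries each, were the miR-139 line given 1 µg/ml doxycycline for 96 h, the untreated miR-139 line at 0 h, the scrambled line given the same doxycycline for 96 h, and the untreated scrambled line at 0 h. Per the labels every untreated library was taken at 0 h, so doxycycline and 96 h of further time cannot be told apart within a line. The column of each library carries a tag, NE, C or TR, with 1 library of each tag in every group, and the sources used here do not say what the tags stand for. Values are FPKM, fragments scaled to the length of the transcript and to the number of mapped fragments, so levels can be compared between genes.

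Human mitochondria keep their own ribosomes, which translate the few mRNAs of the mitochondrial genome, for subunits of the respiratory chain and ATP synthase. Their ribosomal RNAs come from the mitochondrial genome, whereas all of their proteins are made in the cytosol and imported. Some of these proteins descend from bacterial ribosomal proteins and others are found only in mitochondria. Tetracyclines such as doxycycline bind the small subunit of bacterial ribosomes and are known to inhibit protein synthesis in mitochondria, so these genes are of interest in any system that is switched on with doxycycline. Transcription factors of the ETS family (GABPA), NRF1 and YY1 are known regulators of nuclear genes for mitochondrial proteins.

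The induced miRNA is shown with its seed, bases 2 to 8, in capitals, because its match was searched for in the 3′ UTRs of these genes. It lies on chr11:72615102-72615124, minus strand, in RefSeq (GRCh38.p14).
hsa-miR-139-5p: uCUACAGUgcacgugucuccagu
The match ACTGTAG was found in the longest annotated 3′ UTR of 2 of the 49 genes (4.08%), against 11.3% of the 7923 tested genes with an annotated 3′ UTR. Both lie in GENCODE transcripts of GRCh38, another build than that of the table, and both extend to an 8-mer match. In the sequences below the capitals mark the match, on the plus strand, at chr12:93502396-93502402 for MRPL42 and at chr11:73864373-73864379 for MRPL48.
MRPL42 site: ttaaatttgtACTGTAGaatgtttgtg
MRPL48 site: ctACTGTAGaccctttcat
The mitochondrial ribosomal protein genes have short 3′ UTRs, with a median of 471 bases against 1324 bases over the tested genes. A match of these letters is not evidence of a functional site.

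All 49 genes were expressed in every library. None was listed at 0, all passed the filter of a mean of at least 1 FPKM that left 9778 genes for testing, and their median level was 62.4 FPKM against 14.4 FPKM over all genes tested. The mean levels over the 12 libraries lay between 2.56 and 175 FPKM, with 10 genes at 100 FPKM or more and 4 below 30 FPKM. Without MRPL30, the lowest of the 49, every gene stood above the 58.1th percentile of the genes tested.

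In the large subunit the highest mean levels were those of MRPL51, a protein found only in mitochondria, at 175 FPKM, MRPL33 at 153 FPKM, MRPL23, which lines the exit of the nascent chain, at 144 FPKM, MRPL28 at 141 FPKM and MRPL11, at the base of the stalk, at 125 FPKM. The lowest were MRPL55 at 30.4 FPKM, MRPL44, a relative of RNase III near the tunnel exit, at 21.2 FPKM and MRPL30 at 2.56 FPKM. In the small subunit MRPS34 led with 142 FPKM, followed by MRPS26 with 117 FPKM, MRPS23 with 102 FPKM, MRPS6 with 81.3 FPKM and MRPS15 with 79.1 FPKM. MRPS7 at 47.8 FPKM, MRPS31 at 21.1 FPKM and MRPS14 at 19.8 FPKM closed the list. Proteins of the same particle thus had mRNA levels that differed severalfold, while the sum over the 34 MRPL genes kept a near constant ratio to the sum over the 15 MRPS genes, between 2.22 and 2.32 in the 12 libraries.

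MRPL30 varied most among libraries, with a ratio of 3.32 between its highest and lowest value at a level of only a few FPKM, and MRPS35 least, with a ratio of 1.25. Of the 49 genes, 13 share exon sequence with another gene on the same strand in GENCODE and 19 with a gene on the opposite strand. Whether strand was used in making the table is not given in the sources used here, so for these genes fragments of 2 genes may not be told apart. The table also lists 45 pseudogenes of this family, of which 3 reached a mean of 1 FPKM, the highest at 20.7 FPKM (MRPL3P1). The levels in each library are drawn in the plot of all 49 genes by library.

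**Figure D1:**
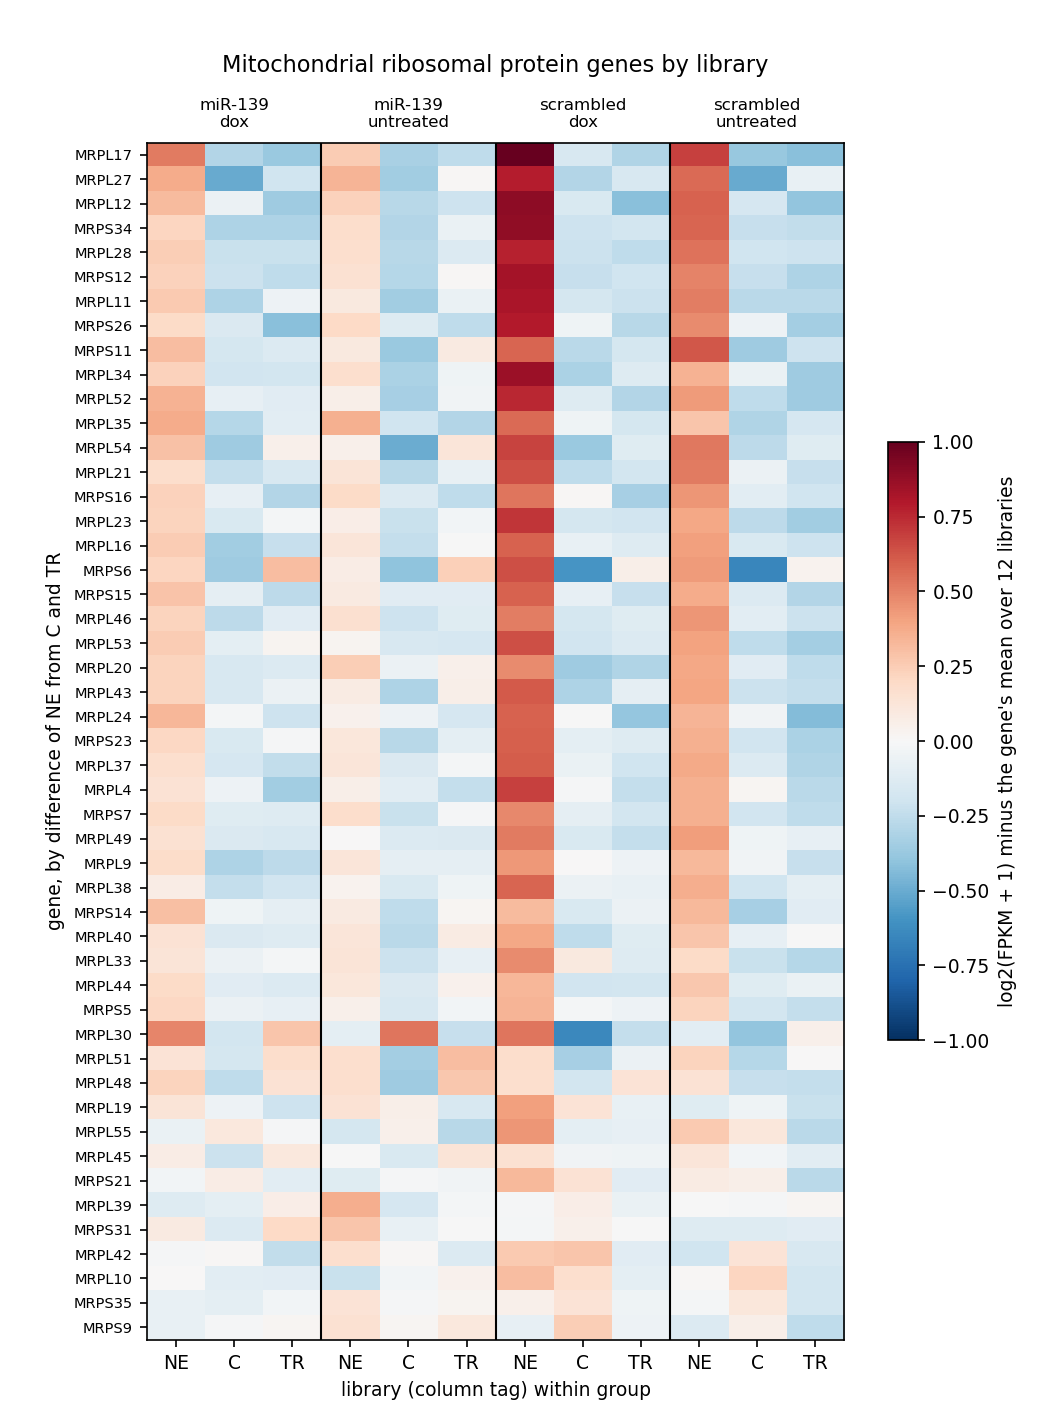
Rows are the 49 genes, ordered by how far the NE libraries stood above the C and TR libraries. Columns are the 12 libraries by group and column tag, and colour is log2(FPKM + 1) minus the gene's mean over the 12 libraries (no error is drawn). The NE columns are red in most rows of all 4 groups, darkest in the doxycycline-treated scrambled line. The band is missing or patchy in the rows at the bottom, of which MRPL55 has it in the scrambled line and not in the miR-139 line.

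As a check of the labels, HNRNPF, the RNA-binding protein that the series names beside the miRNA, was 98.5 ± 13.7 FPKM after doxycycline and 205 ± 28.8 FPKM untreated in the miR-139 line (SD, n = 3 each). In the scrambled line it was 216 ± 43.3 FPKM after doxycycline and 208 ± 32.6 FPKM untreated. Its log2 change of -1.05 in the miR-139 line had an adjusted p of 0.337 in limma, and of 3.61e-05 with libraries of the same tag compared (replicate block). The cells carried KRT18, KRT8 and VIM, at means of 663, 618 and 1711 FPKM, and the thyroid factor PAX8 at 107 FPKM, whereas the thyroid genes SLC5A5 and TSHR stayed below 0.1 FPKM and NKX2-1 was listed at 0 in all 12 libraries. Of markers of other cell types, PTPRC, CD3E and COL3A1 were listed at 0 in every library, and the summed markers of endothelium lay between 1.80 and 3.06 FPKM in NE libraries and between 0.987 and 2.54 FPKM in C and TR libraries. The summed leukocyte markers were 7.92 to 11.5 FPKM in NE and 5.32 to 12.6 FPKM in C and TR libraries, and those of fibroblasts 41.6 to 57.1 FPKM in NE and 33.2 to 100.4 FPKM in C and TR libraries. The columns are not tied to single cultures. Without the block, p-values here rest on how far libraries of a group lie apart, and some of that distance may be technical. In fits that include the tag, they rest on the spread left after group and tag are taken out. For a difference between tags, they therefore measure how alike that difference is from group to group. What the tags stand for is not given, so libraries of the same tag may not be independent replicates of it.

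The first comparison asked what induction of miR-139-5p, together with the doxycycline that drives it and the time that passed, did to these genes. None of the 49 genes passed the test. Of their log2 changes after doxycycline, given as differences of log2(FPKM + 1), 27 were positive and 22 negative, between -0.12 and 0.16, and the median was 0.0099 (all genes tested, 0.0032). The 49 genes summed to 3872, 2994 and 3097 FPKM in the doxycycline-treated NE, C and TR libraries, against 3681, 2908 and 3280 FPKM in the untreated ones. The treated sum differed from the untreated one by 5.19% in NE, 2.94% in C and -5.58% in TR libraries, and the 2 groups overlapped.

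limma, which fits a linear model across all genes, called none of the 49 at an adjusted p under 0.05, nor any of the 9778 genes tested (0%). At an unadjusted p under 0.05 it again called none of the 49, with 0.736% of all genes. Blocking on the tag, so that libraries of the same tag are compared, also called none of the 49, against 0.0205% of all genes adjusted, and none at an unadjusted p under 0.05, where 4.48% of all genes passed. Within all 3 tags, 6 of the 49 were higher and 5 lower after doxycycline, shares of 12.2% and 10.2%, against 16.3% and 14.5% of all genes tested.

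Among the genes that moved one way within all 3 tags, MRPL53, a protein of the stalk region, was 40.1, 31.2 and 34.03 FPKM in treated NE, C and TR libraries and 34.1, 29.8 and 29.6 FPKM in untreated ones. Its log2 change of 0.16 (SE 0.24, and 0.12 with the block) was not called in either fit. MRPL55 averaged 30.4 ± 1.89 FPKM treated and 27.5 ± 3.36 FPKM untreated, and MRPS23 averaged 102 ± 13.0 FPKM treated and 95.3 ± 13.3 FPKM untreated (SD, n = 3 each). On the other side, MRPS9, whose bacterial counterpart reaches the transfer RNA in the peptidyl site, was 52.1, 54.4 and 55.5 FPKM in treated NE, C and TR libraries and 61.2, 55.7 and 59.0 FPKM in untreated ones. Its highest treated value, 55.5 FPKM, lay just below its lowest untreated one, 55.7 FPKM, and the share of all genes that separate this way is not given here. Its log2 change of -0.12 (SE 0.13) was not called, with an adjusted p of 1 in limma. MRPS35 had 62.4 ± 1.59 FPKM treated and 67.8 ± 3.84 FPKM untreated, and MRPL20 had 82.0 ± 12.7 FPKM treated and 88.0 ± 9.74 FPKM untreated (SD, n = 3 each).

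The 2 genes with a match to the miR-139-5p seed were not called either. MRPL42, a large-subunit protein found only in mitochondria, was 65.3, 66.4 and 55.4 FPKM in treated NE, C and TR libraries and 74.0, 66.3 and 59.8 FPKM in untreated ones. MRPL48, in the central protuberance, was 53.4, 38.2 and 50.6 FPKM in treated and 51.4, 35.6 and 55.3 FPKM in untreated NE, C and TR libraries. For both genes the treated and untreated ranges overlapped.

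The second comparison asked what doxycycline did where it induced only the scrambled control. Here 42 of the 49 genes had a positive log2 change and 7 a negative one, with a median of 0.11 and a range of -0.07 to 0.28, but none passed the test. Over all genes tested the median was 0.02 and 57.8% were positive. The 49 genes summed to 5046, 3108 and 2998 FPKM in treated NE, C and TR libraries and to 4333, 3004 and 2867 FPKM in untreated ones, which is 16.5%, 3.45% and 4.57% more after doxycycline. The sum was higher in the treated library of every tag, while the 2 groups overlapped because the NE libraries stood far above the others in both. These sums are not scaled to the summed FPKM of all genes in each library. As a share of it the 49 genes took 0.528% to 0.760% in treated and 0.532% to 0.702% in untreated libraries. The lowest treated share lay below every untreated one, so the share was not higher in every tag.

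limma called none of the 49 and none of all genes at an adjusted p under 0.05 (0%), and without adjustment none of the 49 and 0.481% of all genes. With the replicate block none was called either (0% of all genes), while 3 of the 49 (6.12%) had an unadjusted p under 0.05, against 4.0% of all genes. These were MRPL19, MRPL33 and MRPL42, all higher. Within all 3 tags 26 of the 49 genes were higher and 1 lower, shares of 53.1% and 2.04%, against 20.2% and 12.6% of all genes tested. The median change of the 49 within a tag was 0.22 in NE, 0.05 in C and 0.06 in TR, so the 3 tags shared a sign and differed in size, as the plot of changes within each tag shows. The doxycycline-treated NE library of this line had the highest sum of all 12, and the median became -0.15 when it was left out, which takes away the NE library of only 1 of the 2 groups, and 0.29 when the untreated NE library was. Without all 4 NE libraries it was 0.06. Under the other settings, with all libraries kept, it lay between 0.05 and 0.11.

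MRPL19, a large-subunit protein with a bacterial counterpart, was 76.8, 63.7 and 54.6 FPKM in treated NE, C and TR libraries and 53.1, 56.0 and 49.4 FPKM in untreated ones, with a log2 change of 0.28 (SE 0.15). Its adjusted p in limma was 1.00 without and 0.998 with the block. MRPL33 had 210, 161 and 138 FPKM in treated NE, C and TR libraries and 172, 129 and 124 FPKM in untreated ones, a log2 change of 0.25 (SE 0.18). The treated and untreated ranges of both genes overlapped. MRPL17 was 160, 69.2 and 62.7 FPKM in treated NE, C and TR libraries and 125, 59.4 and 57.8 FPKM in untreated ones. The treated library was the higher within every tag, while the groups overlapped. Its log2 change of 0.23 (SE 0.38, and 0.12 with the block) was called in neither fit and became -0.19 without the treated NE library.

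**Figure D2:**
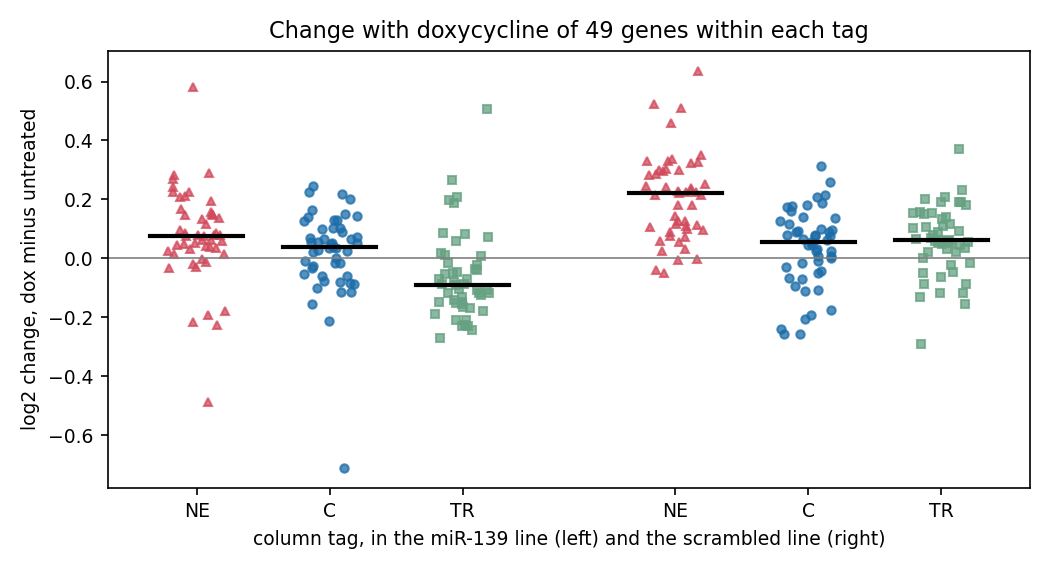
Each point is 1 of the 49 genes, placed at its log2 change between the doxycycline-treated and the untreated library of the same column tag, in the miR-139 line on the left and the scrambled line on the right. Black bars are medians over the 49 genes (0.08, 0.04 and -0.09 for NE, C and TR on the left, against 0.22, 0.05 and 0.06 on the right), horizontal jitter is random and no error is drawn.

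The signs were also counted by structure. In the scrambled line the change was positive for 17 of 19 large-subunit genes with a bacterial counterpart, 10 of 15 found only in mitochondria, 10 of 10 small-subunit genes with a bacterial counterpart and 5 of 5 found only in mitochondria, with medians of 0.11, 0.03, 0.11 and 0.13. In the miR-139 line the same groups had 12, 7, 7 and 1 positive genes and medians of 0.017, -0.00036, 0.03 and -0.06. None of these 49 genes was called in either line, so the counts describe signs only.

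Whether doxycycline acted differently in the 2 lines was asked by the interaction, the change in the miR-139 line minus that in the scrambled line. It was negative for 39 and positive for 10 of the 49 genes, with a median of -0.09 (all genes, -0.02), and none was called (0% of all genes in limma, and without adjustment 0.419%, with none of the 49). With the replicate block none of the 49 was called against 0.0102% of all genes, and 2 of the 49 (4.08%) had an unadjusted p under 0.05, against 3.44% of all genes. Those 2 were MRPL19, at -0.34 (SE 0.21 without and 0.12 with the block), and MRPL42, at -0.31 (SE 0.22 and 0.14). MRPS9 followed at -0.26 (SE 0.18). The interaction was negative within all 3 tags for 17 of the 49 (34.7%; 18.3% of all genes) and positive for 1 (2.04%; 13.9% of all genes). In 4 of the 49 (8.16%; 2.38% of all genes) every tag was lower after doxycycline in one line, miR-139, and higher in the other. The median of the interaction ran between -0.26 and 0.17 when single libraries were left out.

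Set against the doxycycline-treated scrambled line, the treated miR-139 line had 43 of the 49 genes lower and 6 higher, at a median of -0.11 (all genes, -0.01). None passed the test in limma (0% of all genes, and without adjustment 1.07%, with none of the 49). With the block none of the 49 was called against 0.112% of all genes, and 7 of the 49 (14.3%) had an unadjusted p under 0.05, all lower in the miR-139 line, against 7.18% of all genes. Within all 3 tags 14 of the 49 were lower (28.6%; 15.1% of all genes) and 0 higher (13.3% of all genes). MRPS34, with the most negative value, was 159, 110 and 110 FPKM in NE, C and TR libraries of the treated miR-139 line and 254, 118 and 120 FPKM in those of the treated scrambled line. Its log2 difference was -0.30 (SE 0.30), with the widest gap in the NE libraries and smaller gaps of the same sign in C and TR. It became 0.063 without the treated scrambled NE library. Leaving that library out takes away the NE library of only 1 of the 2 groups, which by itself raises such values for genes high in NE. MRPS26 at -0.28 (SE 0.28) became 0.039 without that library. MRPL38, in the central protuberance, was at -0.27 (SE 0.20). The median of the 49 was 0.12 without that library and -0.01 without all 4 NE libraries. The SEs given here are from the fit without the block. The median SE over the 49 genes was 0.23 in that fit and 0.11 with the block.

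Between the untreated lines the signs were mixed. Of the 49 genes, 31 were lower and 18 higher in the miR-139 line, and the median was -0.03 (all genes, -0.00087). limma called none of them (0% of all genes), and without adjustment none of the 49 and 0.593% of all genes. The block called none either (0%), and at an unadjusted p under 0.05 it had none of the 49 and 4.45% of all genes. MRPL49 averaged 60.4 ± 3.66 FPKM in the untreated miR-139 line and 69.8 ± 14.4 FPKM in the untreated scrambled line. MRPL55 averaged 27.5 ± 3.36 and MRPS16 64.0 ± 10.7 FPKM in the untreated miR-139 line, against 31.3 ± 5.94 and 69.9 ± 17.9 FPKM in the untreated scrambled line (SD, n = 3 each). These 3 genes were the only ones of the 49 lower within every tag in the miR-139 line, where 9.4% of all genes tested were lower. Another 2 of the 49 were higher within every tag, against 9.75% of all genes. None of the 3 named genes was called with or without the block.

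The column tag held far more of the variation than line or drug. Of the summed squares of the 49 genes, 74.4% lay between tags and 7.61% between groups, against 62.5% and 13.1% over all genes tested. The NE libraries were the high ones. The 49 genes summed to between 3681 and 5046 FPKM in the 4 NE libraries, against 2867 to 3280 FPKM in the 8 C and TR libraries, without overlap. As a share of the summed FPKM of all genes analysed that was 0.654% to 0.760% in NE and 0.520% to 0.549% in C and TR.

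**Figure D3:**
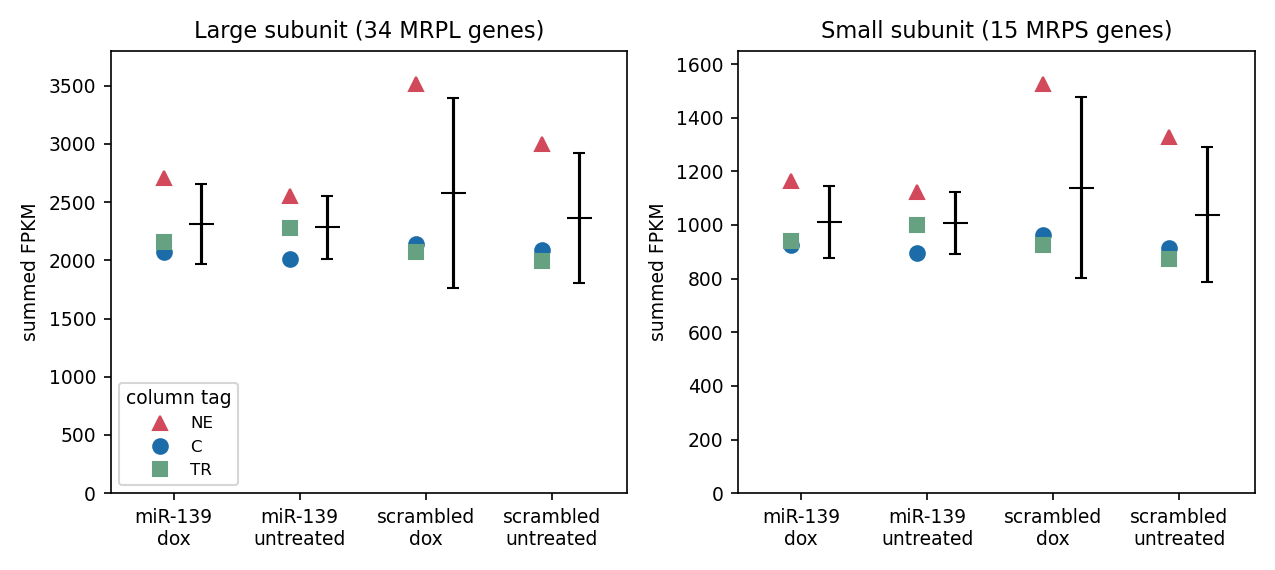
Summed FPKM of the 34 MRPL genes (left) and the 15 MRPS genes (right) in each library. Groups run along the axis, symbols mark the column tag, and the bar beside them is the mean ± SD of the 3 libraries. The NE library is the highest of its group in all 8 cases, from 2556 to 3519 FPKM for MRPL and from 1125 to 1528 FPKM for MRPS genes.

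Tested in a fit with group and tag, 39 of the 49 genes (79.6%) were higher in NE libraries than in C and TR libraries, against 28.0% of all genes tested. None of the 49 was lower, adjusted or at an unadjusted p under 0.05, where 24.0% of all genes were called lower after adjustment. The log2 differences had a median of 0.48 (all genes, 0.02), and those of the 39 called genes ran between 0.21 and 0.94, with adjusted p in limma from 7.66e-06 to 0.0157. In 34 of the 49 genes (69.4%) the NE library was the highest of the 3 in all 4 groups, against 19.4% of all genes.

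MRPL17, a large-subunit protein with a bacterial counterpart, had 112, 92.5, 160 and 125 FPKM in the NE libraries of the treated and untreated miR-139 line and the treated and untreated scrambled line. Its 8 C and TR libraries lay between 57.8 and 69.2 FPKM, with a median of 62.2, so NE stood clear of them in every group. The log2 difference was 0.94 (SE 0.09, adjusted p = 7.66e-06, limma).

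MRPL27, whose bacterial counterpart reaches into the peptidyl transferase centre, was 66.8, 65.4, 89.0 and 76.5 FPKM in the same 4 NE libraries and between 35.9 and 51.6 FPKM in C and TR libraries, with a log2 difference of 0.78 (SE 0.08, adjusted p = 8.57e-06, limma). MRPL12, the protein of the flexible stalk that recruits translation factors, was 121, 115, 181.9 and 148 FPKM in NE libraries and between 72.8 and 93.7 FPKM in C and TR libraries. Neither gene overlapped between NE and the other libraries, and the share of all genes without such overlap is not given here. The log2 difference of MRPL12 was 0.76 (SE 0.10, adjusted p = 4.77e-05, limma).

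In the small subunit MRPS34 averaged 193 ± 46.3 FPKM in NE libraries (SD, n = 4) and 117 ± 6.79 FPKM in C and TR libraries (SD, n = 8). MRPS12, a protein of the decoding centre, averaged 69.7 ± 15.7 FPKM in NE and 43.6 ± 3.22 FPKM in C and TR libraries. The C and TR libraries come from all 4 groups, and their spread in these 2 genes was small beside the distance to NE.

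The remaining 10 genes did not pass the test, with log2 differences between -0.05 and 0.31 and adjusted p from 0.150 to 0.725 in limma. They were MRPS9, MRPS35, MRPL10, MRPL42, MRPS31, MRPL39, MRPS21, MRPL45, MRPL55 and MRPL30. MRPS9 had 52.1, 61.2, 51.9 and 49.8 FPKM in NE libraries, inside its range of 45.9 to 65.1 FPKM in C and TR libraries. MRPL10, which anchors the stalk, had 46.0, 39.2, 57.1 and 46.3 FPKM in NE libraries and 40.2 to 53.3 FPKM in C and TR libraries. MRPL10 and MRPL12 meet in the same stalk, and their mRNAs had log2 differences of 0.04 (SE 0.09) for MRPL10 and 0.76 (SE 0.10) for MRPL12.

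**Figure D4:**
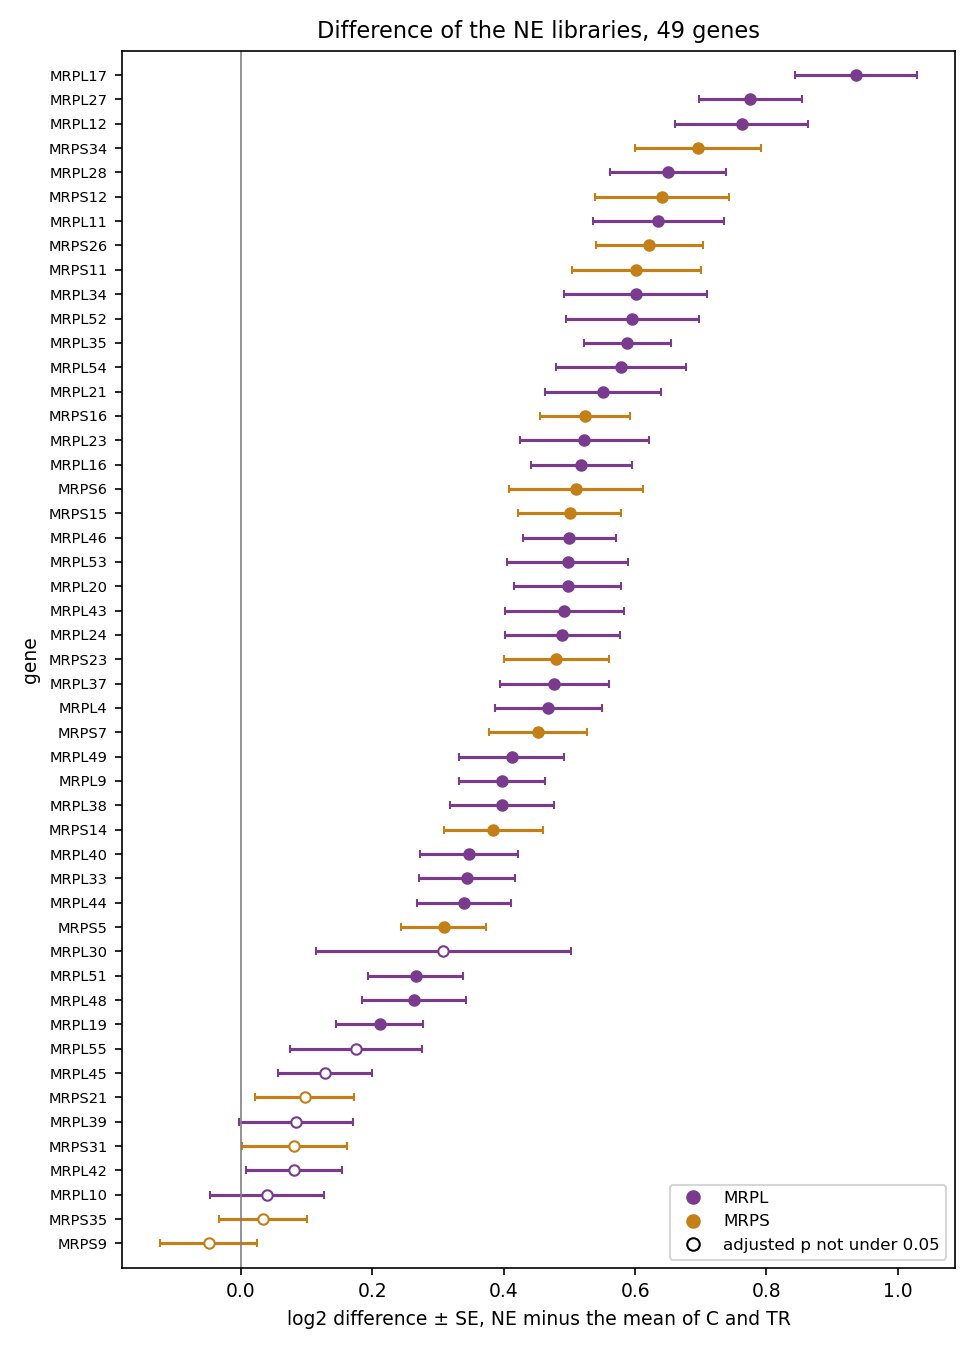
Log2 difference of the NE libraries from the mean of the C and TR libraries for each of the 49 genes, with its SE from the fit over all genes. Purple marks MRPL and orange MRPS genes, and open circles the 10 genes whose adjusted p was not under 0.05. All genes but MRPS9 lie to the right of 0, up to 0.94 for MRPL17.

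By structure, the genes higher in NE were 16 of 19 large-subunit genes with a bacterial counterpart, 12 of 15 found only in mitochondria, 8 of 10 small-subunit genes with a bacterial counterpart and 3 of 5 found only in mitochondria. They included 4 of 5 genes of the stalk, led by MRPL11 and MRPL12 in level, 4 of 4 of the central protuberance, among them MRPL46 and MRPL48, 3 of 4 at the exit of the nascent chain, such as MRPL23 and MRPL24, and 2 of 3 of the decoding and transfer RNA channel (MRPS7 and MRPS12). Also called higher were MRPL34, MRPL52, MRPL35, MRPL21, MRPL16, MRPL43, MRPL37, MRPL9, MRPL40 and MRPS5, with log2 differences between 0.31 and 0.60. The exceptions among the stalk, exit and channel genes were MRPL10, MRPL45, which ties the ribosome to the inner membrane, and MRPS9. For comparison, 79.6% of the whole set of mitochondrial ribosomal protein genes and 28.0% of all genes tested were called higher in NE. Whether any structural part departed from the share of the whole set was not tested.

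The NE difference was seen in each group, with a median over the 49 genes of 0.35 in the treated and 0.23 in the untreated miR-139 line, and of 0.71 in the treated and 0.57 in the untreated scrambled line. The sum over the 49 genes in NE exceeded the mean of C and TR by 27.1% (treated) and 18.97% (untreated) for the miR-139 line, against 65.3% (treated) and 47.6% (untreated) for the scrambled line. These sums are not scaled to the summed FPKM of all genes, which lay between 534216 and 664359 by library. As a share of it, treated and untreated NE libraries had 0.664% and 0.654% in the miR-139 line. They had 0.760% and 0.702% in the scrambled line, against 0.520% to 0.549% in all C and TR libraries. Tested as a comparison chosen after seeing the data, the NE difference was smaller in the miR-139 line for 15 of the 49 genes (30.6%; 4.79% of all genes) and larger for none (2.82% of all genes), but this count depended on the setting and fell to 0 without some single libraries. The median of that difference was -0.36, and -0.076 after the correction for GC content and length.

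Other measures moved with the tag. Mitochondrially encoded genes took 6.08% to 9.18% of the summed FPKM of all genes analysed in NE libraries and 11.4% to 13.1% in C and TR libraries. When each library was instead scaled to the sum of the genes not encoded in mitochondria, the median over all genes tested shifted to -0.13, that of the 49 genes was 0.31, 34 of the 49 were called higher (15% of all genes) and 1 lower (MRPS9, at -0.22, adjusted p = 0.0406 in limma; 35% of all genes), and 8 had a negative sign. The mRNAs that the mitochondrial ribosome translates went the other way: 12 of 13 were called lower in NE libraries, against 24.0% of all genes, with a median log2 difference of -0.67. MT-CO1 lay between 4413 and 7655 FPKM in NE and between 8628 and 10165 FPKM in C and TR libraries. The mesenchymal marker FN1, picked after its values were seen, was 31.4 to 90.6 FPKM in NE and 126 to 574 FPKM in C and TR libraries. VIM, the other mesenchymal marker, is not given by tag, so FN1 does not stand for such markers. The part of the differences in mitochondrially encoded genes and FN1 in the result was not tested.

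The NE difference also went with base composition and length. Across the 7945 tested genes with a matched transcript in GENCODE it had a Spearman rho of 0.37 with GC content and -0.33 with transcript length. Across the 49 genes the values were 0.48 and -0.21. These are descriptions across genes of the same libraries. The 49 genes are short, with a median length of 1387 bases against 2983, and have a median GC content of 52.3% against 50.8%. The 39 called genes had a median GC content of 52.8% and the 10 others 44.4%. After each library was corrected for GC content and length, the median of the 49 genes was 0.27, and 39 were again called higher, 37 of them shared with the uncorrected fit, against 31.8% of all genes.

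**Figure D5:**
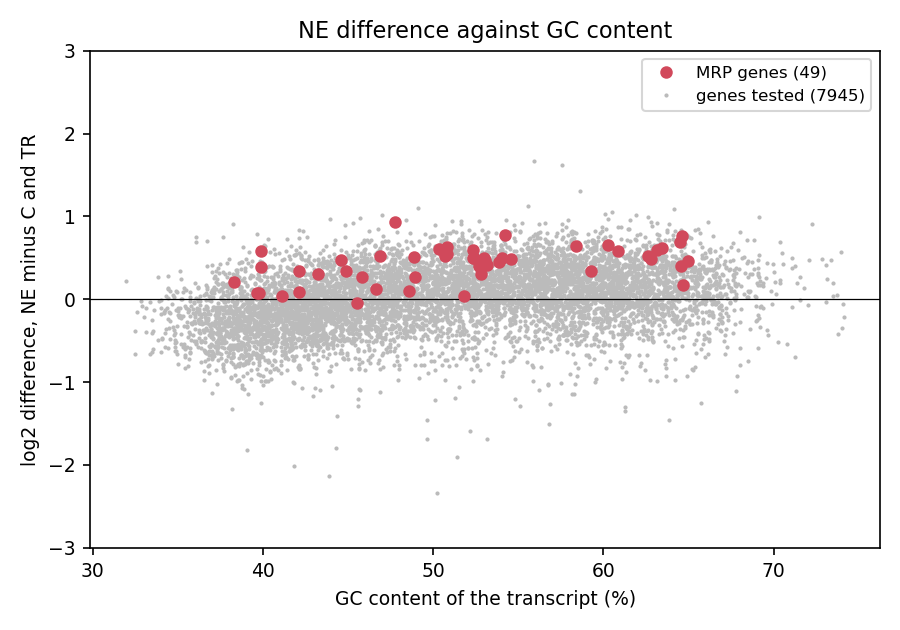
GC content of the transcript (%) against the log2 difference of NE from C and TR libraries, for the 49 genes (red) over the 7945 tested genes with a matched transcript (grey; no error drawn). Both rise with GC content, and nearly all of the 49 genes lie above 0 over the whole range of GC content.

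Genes that work with the mitochondrial ribosome were read from lists chosen beside the 49, and their counts stand against 28.0% of all genes called higher and 24.0% called lower in NE. Of the mitoribosome proteins under other symbols, 6 of 7 were higher in NE libraries and none was called lower, with a median of 0.55. GADD45GIP1 was 145 to 236 FPKM in NE and 112 to 131 FPKM in C and TR libraries, and AURKAIP1 was 109 to 167 FPKM in NE and 82.5 to 99.2 FPKM in C and TR libraries. Of 12 assembly and rRNA modification factors, 7 were higher and 2 lower, with the GTPases MTG2 and ERAL1 both among the higher ones (0.43, SE 0.09, and 0.26, SE 0.07). Of 11 translation factors, 6 were higher, among them the elongation factor TUFM and the RNA-binding SLIRP, and 4 were lower. Of 12 aminoacyl-tRNA synthetases of mitochondria, 8 were higher and none lower. Of 9 genes of mitochondrial transcription and its regulation, 2 were higher and 1 lower, and TFAM, which packs mitochondrial DNA, differed by -0.06 (SE 0.07). Of 14 genes of the mitochondrial unfolded protein and ATF4 response, 4 were higher and 5 lower. No gene of these lists was called for doxycycline in either line, with or without the block. In signs, 1 of the 14 genes of that response was positive after doxycycline in the miR-139 line (51.2% of all genes) and 9 of 14 in the scrambled line (57.8% of all genes), and the interaction was called for none of them.

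Between the other 2 tags the 49 genes differed little as a group. In C against TR libraries the median was -0.02 (all genes, 0.01), with 1 gene called higher (2.04%; 8.16% of all genes) and 5 called lower (10.2%; 8.49% of all genes). MRPL42 was the one higher in C, at 66.4, 66.3, 80.2 and 72.7 FPKM in the C libraries of the treated and untreated miR-139 line and the treated and untreated scrambled line, against 55.4, 59.8, 60.8 and 58.9 FPKM in the TR libraries (log2 0.27, SE 0.08, adjusted p = 0.0410, limma). Its C libraries were all above its TR libraries, and the share of all genes of which this holds is not given here.

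MRPS6, lowest in C, was 61.1, 59.0, 51.8 and 49.4 FPKM in the same 4 C libraries and 97.5, 92.6, 81.6 and 80.3 FPKM in the TR libraries (log2 -0.66, SE 0.12, adjusted p = 0.00223, limma). MRPS6 shares exon sequence on the same strand with SLC5A3, the gene of a myo-inositol transporter, which was also lower in C than in TR (log2 -0.78, SE 0.11) but, unlike MRPS6, lower in NE than in C and TR (log2 -0.91, SE 0.10). MRPL51 followed at -0.39 (SE 0.08), MRPL54 at -0.35 (SE 0.11), MRPL48 at -0.33 (SE 0.09) and MRPL27 at -0.31 (SE 0.09). MRPL24 and MRPL4, both higher in C in all 4 groups, did not pass (0.27, SE 0.10, and 0.24, SE 0.09). This count was unstable: it was between 2 and 10 when libraries were left out. After the correction for GC content and length 10 genes were called higher (17% of all genes) and 5 lower (15.7% of all genes).

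The promoters of the 3 genes with the largest NE difference and of MRPS9, the only one with a negative value, are printed to show what the search for regulator motifs read. Each is 300 bases from RefSeq (GRCh38.p14), 5′ to 3′ on the strand of the gene, from 250 bases before the start to 50 after it, at chr11:6683291-6683590 (minus strand) for MRPL17, chr17:50373135-50373434 (minus) for MRPL27, chr17:81703117-81703416 (plus) for MRPL12 and chr2:105037819-105038118 (plus) for MRPS9. Capitals mark matches to the letters searched on both strands: GCGCANGCG for NRF1, CCGGAAG for the ETS factor GABPA, AAGATGGCG for YY1 and CACGTG for the E-box bound by MYC.
MRPL17 promoter: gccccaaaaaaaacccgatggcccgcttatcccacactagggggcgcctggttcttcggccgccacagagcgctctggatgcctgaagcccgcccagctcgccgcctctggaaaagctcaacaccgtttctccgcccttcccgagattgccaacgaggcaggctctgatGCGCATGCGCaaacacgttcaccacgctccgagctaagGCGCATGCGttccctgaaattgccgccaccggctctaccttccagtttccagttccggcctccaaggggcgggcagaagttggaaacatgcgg
MRPL27 promoter: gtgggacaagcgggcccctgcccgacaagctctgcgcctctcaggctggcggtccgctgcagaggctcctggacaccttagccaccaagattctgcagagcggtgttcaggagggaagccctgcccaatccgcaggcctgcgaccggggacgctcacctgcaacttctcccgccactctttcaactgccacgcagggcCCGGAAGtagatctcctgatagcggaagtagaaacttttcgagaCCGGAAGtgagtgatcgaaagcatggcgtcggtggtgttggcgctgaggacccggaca
MRPL12 promoter: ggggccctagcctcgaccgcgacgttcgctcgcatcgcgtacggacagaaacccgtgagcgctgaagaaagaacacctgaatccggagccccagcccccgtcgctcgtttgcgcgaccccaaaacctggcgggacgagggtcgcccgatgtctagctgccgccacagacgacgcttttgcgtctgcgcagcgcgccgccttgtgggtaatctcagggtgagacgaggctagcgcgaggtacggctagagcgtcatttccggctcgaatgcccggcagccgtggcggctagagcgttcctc
MRPS9 promoter: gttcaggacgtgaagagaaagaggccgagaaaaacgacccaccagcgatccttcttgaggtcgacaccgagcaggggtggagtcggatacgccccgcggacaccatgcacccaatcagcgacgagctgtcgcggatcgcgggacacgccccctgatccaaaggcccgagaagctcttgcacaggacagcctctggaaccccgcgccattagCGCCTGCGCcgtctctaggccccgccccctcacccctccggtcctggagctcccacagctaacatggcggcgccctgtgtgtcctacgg
MRPL17 held 3 matches to the NRF1 letters, of which 2 overlap on opposite strands, MRPL27 held 2 to the ETS letters, MRPL12 held none of the 4 and MRPS9 held 1 to the NRF1 letters. These 4 genes were chosen by their NE difference, and whether a match goes with that difference was not tested.

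Of the 45 genes with a promoter entry, 21 (46.7%) held the ETS letters, against 24.2% of the 6451 tested genes with such an entry and 12.2% of all 27305 genes with one. A gene was counted if the promoter of any of its starts held the letters. The share was the same in both subunits, 14 of 30 and 7 of 15. The NRF1 letters were in 8 of 45 (17.8%; 18.1% of tested genes), those of YY1 in 4 (8.89%; 5.21%) and the E-box in 3 (6.67%; 12.4%). Among the genes higher in NE 18 of 36 with a promoter entry held the ETS letters, and among those not called 3 of 9. In GENCODE 16 of the 49 genes (32.7%) have the start of another protein-coding gene on the opposite strand within 1000 bases, against 18.7% of the 7945 tested genes with a matched transcript. In 1 pair both belong to the 49, MRPL46 and MRPS11, whose starts lie 34 bases apart, and both were higher in NE libraries, by 0.50 (SE 0.07) and 0.60 (SE 0.10).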

How the data were processed

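RNA-seq libraries of CAL62 cells were read from 1 table of FPKM values that the authors deposited (12 columns used). The submitters' processing notes name TopHat2 2.0.10, Bowtie 1.0.0, STAR 2.5, Cufflinks and HTSeq with GRCh37 (hg19). Which tool and annotation made the FPKM values is not given in the sources used here. Depth is unknown, so no counting interval is given. Columns were assigned to groups, not to single samples. Values were tested as log2(FPKM + 1), where a low gene's change is understated, with limma 3.58.1 (R 4.3.3), a variance trend and Benjamini-Hochberg adjustment over 9778 genes with a mean FPKM of at least 1, two-sided. The groups entered 1 fit, and the fit with the tag as a block is an alternative. An SE given alone for doxycycline, the interaction or the lines is from the fit without the block. For a change with doxycycline the median SE of the 49 genes was 0.23 without and 0.11 with the block. Same-tag libraries deviated together from the means of their groups (r from 0.33 to 0.86 over 18 pairs), so the tags pair the libraries. Over 36 pairs of different tags r was -0.66 to 0.14. Deviations from a mean of 3 libraries make these values mostly negative when same-tag values are positive, so they are not separate evidence. Tags were compared with group in the fit. The scripts were tested on simulated data. Properties came from GENCODE 29 for 7945 tested genes (81.3%).

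The members and lists were chosen with earlier results of these data known. Named were every called gene, the 3 largest changes each way that kept their sign in all tags or groups, the 5 highest and 3 lowest of each subunit, and genes with the seed match. The 10 genes not called in NE, and FN1, were named after their values were seen. Alternatives changed the pseudocount (0.1), the filter (none, or a mean of 5 FPKM), the scaling (upper quartile, quantile, or without mitochondrially encoded genes), the variance trend and the libraries. A correction for GC content and length, and the comparison of the NE difference between lines, were chosen after seeing the data.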

Additional observations from a re-analysis of the deposited data

Results flagged for a closer look

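The difference between NE and the C and TR libraries was smaller for the miR-139 line, by a test of the difference itself in limma. The median over the 49 genes was 0.29 for the miR-139 line and 0.64 for the scrambled one, and the median of the difference was -0.36 (all genes, -0.04), negative for 43 of 49. The median was -0.19 with quantile normalization, -0.14 (33 negative) when scaled without mitochondrially encoded genes and -0.076 (38 negative) after the GC and length correction. It was called for 15 of the 49 (30.6%), all in this direction, against 4.79% of all genes, and for none of the 49 in the other direction (2.82% of all genes). In the small subunit it was -0.63 for MRPS6, -0.53 for MRPS12, -0.51 for MRPS34 and -0.50 for MRPS11. In the large subunit it was -0.54 for MRPL23, -0.53 for MRPL12 and for MRPL55 (-0.53), -0.52 for MRPL11, -0.51 for MRPL53 and -0.50 for MRPL52. Smaller values passed for MRPL17 (-0.47), MRPL28 (-0.45), MRPL43 (-0.44), MRPL21 (-0.43) and MRPL49 (-0.37). The comparison was chosen after seeing the data, the adjusted p of the 15 lay close to the threshold, at 0.0381 or more, and 8 of the 12 fits without 1 library called none: those without any of the untreated miR-139 or treated scrambled libraries, or without the NE or TR library of the untreated scrambled line.

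In 4 genes doxycycline moved all 3 tags one way in the miR-139 line, downwards, and all 3 the other way in the scrambled line, a pattern of 2.38% of all genes against 8.16% of the 49. The change in the miR-139 line minus that in the scrambled line was -0.34 for MRPL19, -0.26 for MRPS9, -0.19 for MRPS26 and -0.19 for MRPS35. None of these differences passed the interaction test in limma.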

How the results depend on the processing

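For doxycycline and line, the count of called genes was 0 under every alternative run, with and without the replicate block (0 of 49 each), and the block changed no call of the 49. When libraries were left out, the median of the 49 ran from -0.10 to 0.090 for doxycycline in the miR-139 line, from -0.15 to 0.29 in the scrambled line, from -0.26 to 0.17 for the interaction, from -0.25 to 0.12 between lines after doxycycline and from -0.15 to 0.17 before it. Leaving out 1 library unbalances the tags. Signs turned in 4 values of named genes: without the treated scrambled NE library, MRPL17 (doxycycline, scrambled line, -0.19 to 0.59 over the libraries left out) and MRPS34 and MRPS26 (lines after doxycycline, -0.48 to 0.063 and -0.50 to 0.039), and without the untreated scrambled NE library, MRPS16 (lines before doxycycline, -0.24 to 0.089). The count of 39 genes higher in NE was between 34 (scaled without mitochondrially encoded genes, where 1 more was lower) and 39 under other settings, and between 36 and 40 without libraries. The count of C against TR, 6, was 2 with no filter, 3 with no variance trend, 15 after the GC and length correction (10 higher, 5 lower, near the 17% and 15.7% of all genes), and 2 to 10 without libraries. The count of the NE difference between lines, 15, was 0 with no filter, 0 with no variance trend, 0 with quantile normalization, 0 after the GC and length correction, 8 with upper quartile scaling, 2 when scaled without mitochondrially encoded genes, and 0 to 26 without libraries. The cause was not tested. Of the values of named genes, 56 lost and 12 gained a call. FPKM without counts gives no depth, which limits what can be said of low genes such as MRPL30.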
